A study of Homo sapiens with 9 samples.

Results

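TGFBI, 3 further matrix proteins (FN1, THBS1 and LAMB3) and 4 integrin subunits (ITGA3, ITGA5, ITGB1 and ITGB4) were followed across a human RNA-seq series, as 8 of the 26625 genes in its count tables. The genes were listed by symbol after their levels in A549 and HEK293T were known, so the difference between the cell lines is described below and not tested. The series set out to compare oligo(dT) reverse-transcription primers in a protocol called CLT-seq, in which cDNA primed from a poly(A) tail is joined to a second adaptor and amplified. HEK293T, an embryonic kidney line carrying the SV40 large T antigen, was grown in DMEM and had 1 library with gene counts for each of 6 primers. A549, an epithelial line from a lung carcinoma, was grown in F-12K and had 1 library with gene counts, made with the T12 primer. Both lines are labelled wild type, with no treatment, and serum was the same share of both media. T12, T18 and T30 carry 12, 18 and 30 T and no anchor. T18V, T18VN and T18VNN carry 18 T followed by 1, 2 or 3 anchor bases, of which V is any base but T and N is any base. Line and medium cannot be told apart here, and each library is bulk RNA, in which fewer cells of a type and less RNA per cell cannot be told apart.

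Cells attach to the extracellular matrix through integrins, receptors made of 1 alpha and 1 beta subunit. ITGB1 is the shared beta subunit of the largest integrin family, in which ITGA3 forms a laminin receptor and ITGA5 a fibronectin receptor. ITGB4 pairs with ITGA6 and binds laminin in hemidesmosomes, the junctions that hold epithelia to their basement membrane. FN1 encodes fibronectin, THBS1 encodes thrombospondin, which can activate latent TGF-beta, and LAMB3 encodes a beta chain of an epithelial laminin, in which it assembles with LAMA3. TGFBI encodes a secreted protein that binds collagen and integrins and was named for its induction by TGF-beta.

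Library totals ran from 7491993 to 25578543 reads, of which 1498224 (A549) to 5200705 (HEK293T T18) lay on genes. Values below are reads, and CPM, the count scaled to the reads on genes of its library. The detection floor was set at 3 reads, or 0.577 to 1.35 CPM in HEK293T and 2.00 CPM in A549. A549 had reads for 9 of 13 markers of its line, with a summed 12152 CPM against 19.4 to 36.1 in HEK293T. EPCAM, SFTPB, SFTPC and NKX2-1 of that list had 0 reads in A549. EPCAM is a marker of epithelium, and the surfactant genes SFTPB and SFTPC are markers of lung epithelium. NKX2-1 went against its list, at 3.16 to 11.7 CPM in HEK293T. HEK293T markers summed to 2073 to 3508 CPM in HEK293T and 466 CPM in A549, where NEFL, NEFM, LIN28B and CDKN2A were at 0. CDH2 and IGF2BP3 of that list went the other way, at 172 and 82.1 CPM in A549, above all 6 HEK293T libraries. Markers of other matrix-bearing or adherent cell types were low: fibroblast markers summed to 47.4 CPM in A549 and 9.49 to 31.7 in HEK293T, with COL1A2, COL3A1, DCN, PDGFRA, PDGFRB and FAP at 0 in A549. COL1A1 (38.0 CPM), THY1 (8.68 CPM) and LUM (1 read) of that list lay above all 6 HEK293T libraries in A549. Of 7 endothelial markers, 6 were at 0 in A549 (summed level 19.4 CPM, all from EGFL7, against 0.306 to 1.73 in HEK293T). Of 7 leukocyte markers, 4 were at 0 in A549, PTPRC and CD3E among them, and the summed level was 80.8 CPM against 0 to 8.57. CD14 (42.05 CPM), the integrin subunit ITGB2 (26.70 CPM) and CD68 (12.01 CPM) of that list lay above all 6 HEK293T libraries in A549. The part of these marker genes in the results below was not tested.

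RefSeq promoter windows (GRCh38.p14, 250 bases before to 50 after a transcript start) were available for 6 of the 8 genes, as 9 windows. Of these, 4 windows are printed because they belong to the gene with the widest difference between the lines (TGFBI), to a gene expressed in both (FN1), and to the genes that hold an AP-1 site (LAMB3 and ITGA5). They run 5′ to 3′ on the gene's strand, and capitals mark a GC box (GGGCGG) or an AP-1 site (TGANTCA), each searched on both strands.
TGFBI, chr5:136028738-136029037, plus strand: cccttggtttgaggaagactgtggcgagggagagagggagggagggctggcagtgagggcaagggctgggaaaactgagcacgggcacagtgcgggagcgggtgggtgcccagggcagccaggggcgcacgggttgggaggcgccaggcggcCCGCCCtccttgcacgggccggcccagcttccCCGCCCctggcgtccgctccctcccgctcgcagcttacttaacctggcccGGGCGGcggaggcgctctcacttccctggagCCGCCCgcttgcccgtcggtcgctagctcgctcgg
FN1, chr2:215436019-215436318, minus strand: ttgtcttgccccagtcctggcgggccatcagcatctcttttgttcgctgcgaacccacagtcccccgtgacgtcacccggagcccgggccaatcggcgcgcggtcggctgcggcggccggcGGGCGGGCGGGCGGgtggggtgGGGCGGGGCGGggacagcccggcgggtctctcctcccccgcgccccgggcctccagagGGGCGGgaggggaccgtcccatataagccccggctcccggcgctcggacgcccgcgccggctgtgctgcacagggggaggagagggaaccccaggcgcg
LAMB3, chr1:209651325-209651624, minus strand: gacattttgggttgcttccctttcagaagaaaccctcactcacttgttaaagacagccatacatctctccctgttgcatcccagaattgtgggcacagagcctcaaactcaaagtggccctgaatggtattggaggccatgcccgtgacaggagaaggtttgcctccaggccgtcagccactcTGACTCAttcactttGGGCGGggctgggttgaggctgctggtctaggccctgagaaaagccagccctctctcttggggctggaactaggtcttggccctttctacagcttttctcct
ITGA5, chr12:54419217-54419516, minus strand: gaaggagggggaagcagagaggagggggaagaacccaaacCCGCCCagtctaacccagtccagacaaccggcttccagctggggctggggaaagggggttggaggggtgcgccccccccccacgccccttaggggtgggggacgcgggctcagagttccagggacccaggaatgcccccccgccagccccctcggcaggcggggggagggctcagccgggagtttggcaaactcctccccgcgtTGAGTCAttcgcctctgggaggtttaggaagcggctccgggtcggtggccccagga
The AP-1 site was in 2 of the 9 windows and in 7.73% of all 34796 RefSeq windows. It began 6 bases before the start of ITGA5 and 67 bases before that of the LAMB3 window, and neither match overlapped a GC box. A GC box was in 8 of the 9 windows and in 44.9% of all, and the FN1 window held 6, of which several overlap each other. The 9 windows are not independent, since LAMB3 and ITGB1 have more than 1 each and overlapping LAMB3 windows share a GC box. TATAAA was in 1 of the 9, a downstream ITGB1 window, and in 11.6% of all. The palindrome GTCTAGAC, a SMAD-binding sequence, was in none of the 9 and in 0.193% of all. GC content was 72.7% for TGFBI, 76.7% for FN1, 53.7% for LAMB3 and 69.3% for ITGA5, against a median of 58.7% over all windows. A match is a run of letters and not a measured binding site.

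TGFBI was the most abundant of the 8 genes in A549 and was not detected in HEK293T. It lies on chromosome 5 (chr5:135364584-135399507, hg19, plus strand) and had 8046 reads in A549, or 5370.4 CPM (95% Wilson interval 5255 to 5489). All 6 HEK293T libraries had 0 TGFBI reads. The floor of 3 reads is 0.919 CPM in HEK293T T12, and the A549 level was 5846-fold that floor. The exact 95% interval of the ratio to T12 had a lower limit of 4753 and covers counting error only. By reads TGFBI ranked 14th of the 13306 genes with a read in A549. The difference has no replicate check, since each line had gene counts for 1 of its T12 libraries.

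FN1 was expressed in every library and was highest in A549. It lies on chr2:216225163-216300791 (hg19, minus strand). In HEK293T it had 51 reads (T12), 17 (T18) and 47 (T30) without an anchor, and 23 (T18V), 15 (T18VN) and 17 (T18VNN) with one; A549 had 541. In CPM these are 15.6, 3.27, 21.2, 8.18, 3.35 and 4.73 in HEK293T, and 361 in A549. T12 and T30 were the high HEK293T libraries, T18 was as low as the anchored libraries, and A549 lay above all 6. The A549 level was 23.1-fold that of HEK293T T12, with an exact 95% interval of 17.3 to 31.5 that covers counting error only. It was 17.0-fold that of T30, the highest HEK293T library. FN1 has 10 transcript entries, of which 9 held the same reads. The short entry of 2383 nt had 8 reads in A549, 6 in HEK293T T18VNN and 0 elsewhere.

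THBS1 and LAMB3 were lower than FN1 in A549 and near or at 0 in most HEK293T libraries. THBS1 (chr15:39873280-39891119, hg19, plus strand) had 0 reads with T12, T18 and T30, 1 read with T18V, 32 with T18VN, 17 with T18VNN and 37 in A549. In CPM the libraries with reads were at 0.356 (T18V), 7.14 (T18VN), 4.73 (T18VNN) and 24.7 (A549). The A549 level was 26.9-fold the floor of HEK293T T12, with an exact 95% lower limit of 20.8 for the ratio to T12. It was 3.46-fold that of T18VN (95% interval 2.1 to 5.73). The size of the THBS1 difference thus moved with the HEK293T primer it was set against. LAMB3 (chr1:209788215-209824679, hg19, minus strand) had 76 reads or 50.7 CPM in A549, 1 read each with T18V and T18VNN, and 0 in the other 4 HEK293T libraries. That is 55.2-fold the floor of HEK293T T12, with an exact 95% lower limit of 43.8 for the ratio to T12. Of the 76 A549 reads, 12 lay outside the other LAMB3 entries, which held 64.

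**Figure D1:**
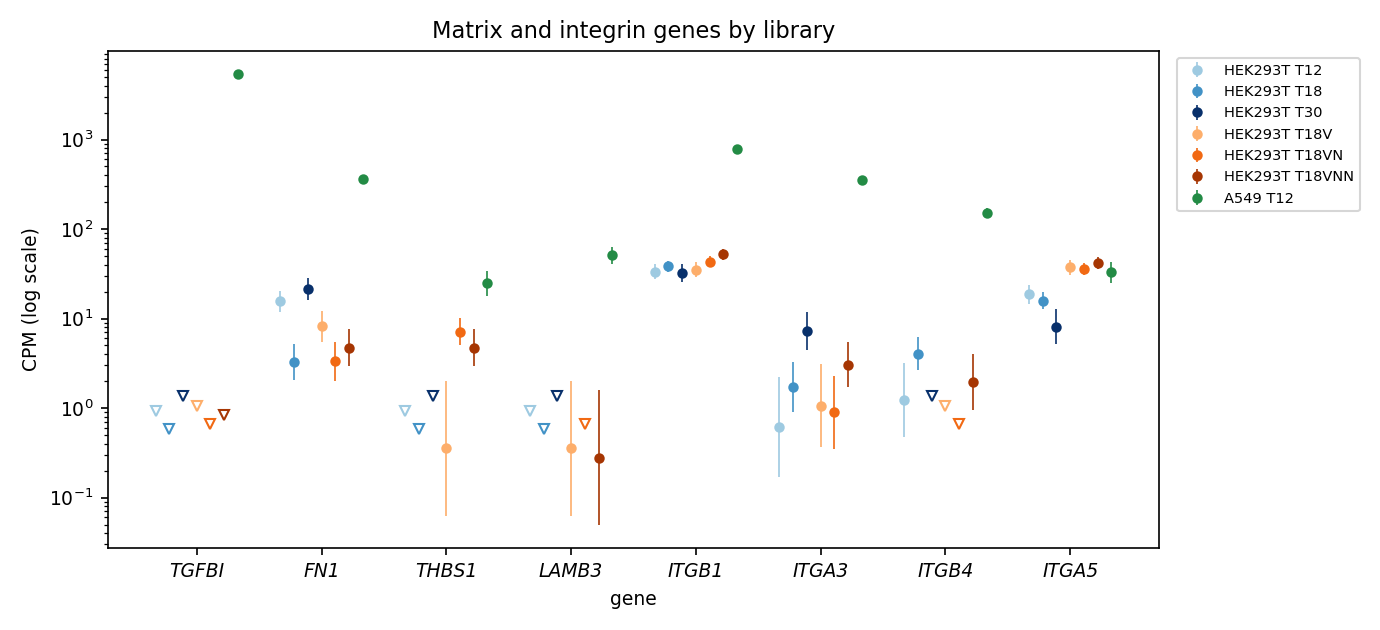
CPM of the 8 genes (log axis) in the 6 HEK293T libraries (blue without anchor, orange anchored) and the A549 library (green); bars are 95% Wilson intervals and open triangles mark the floor of 3 reads in libraries with 0 reads. The A549 point is above every HEK293T point for 7 genes, and for ITGA5 it lies between the unanchored and the anchored HEK293T points.

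Of the receptors, ITGB1 was the most abundant in A549. It lies on chr10:33189246-33247293 (hg19, minus strand), and its 3 entries held the same reads. In HEK293T it had 109 reads (T12), 199 (T18) and 72 (T30) without an anchor, and 99 (T18V), 193 (T18VN) and 189 (T18VNN) with one; A549 had 1164. In CPM these are 33.4, 38.3, 32.5, 35.2, 43.1 and 52.6 in HEK293T, and 777 in A549. HEK293T levels sat close together, and A549 lay above all of them, at 23.3-fold T12 (95% interval 19.1 to 28.6) and 14.8-fold T18VNN.

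ITGA3 and ITGB4, a laminin-receptor subunit of each class, were near the floor in HEK293T and well counted in A549. ITGA3 (chr17:48133332-48167849, hg19, plus strand) had 2 (T12), 9 (T18) and 16 (T30) reads without an anchor, 3 (T18V), 4 (T18VN) and 11 (T18VNN) with one, and 526 in A549. The A549 level of 351 CPM was 573-fold that of HEK293T T12, a ratio with an interval of 158 to 4746 because it rests on 2 reads. It was 48.6-fold that of T30 (7.22 CPM, 95% interval of the ratio 29.7 to 85.7), which stood above the other 5 HEK293T libraries at 0.612 to 3.06 CPM. ITGB4 (chr17:73717408-73753899, hg19, plus strand) had 4 reads with T12, 21 with T18, 7 with T18VNN, 0 with T30, T18V and T18VN, and 224 in A549. Its A549 level was 149.5 CPM, 122-fold that of T12 (95% interval 47.0 to 452) and 37.0-fold that of T18 (4.04 CPM), the highest HEK293T library.

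ITGA5 did not follow the other 7 genes. It lies on chr12:54789045-54813050 (hg19, minus strand) and overlaps the antisense gene GPR84-AS1, whose own entry had 0 reads in all 7 libraries. In HEK293T it had 61 reads (T12), 82 (T18) and 18 (T30) without an anchor, and 105 (T18V), 162 (T18VN) and 150 (T18VNN) with one; A549 had 49. In CPM these are 18.7, 15.8, 8.12, 37.4, 36.2 and 41.7 in HEK293T, and 32.7 in A549. The 3 anchored HEK293T libraries were high and the 3 unanchored were low, with A549 between them. Against HEK293T made with the same T12 primer, A549 was 1.75-fold higher (95% interval 1.18 to 2.59). Against T18VNN it was at 0.784 of the HEK293T level (0.556 to 1.09), although those libraries differ in primer as well as in line. In the order of levels, the intervals of A549 (24.7 to 43.2 CPM), T18VN (31.0 to 42.2), T18V (30.9 to 45.2) and T18VNN (35.5 to 48.9) overlapped, as did those of T18 (12.7 to 19.6) and T12 (14.5 to 24.0). The interval of T30 (5.14 to 12.8) overlapped that of T18 at its edge.

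Among the 8 genes, 7 were at least 2-fold higher in A549 than in HEK293T T12 on the log2(CPM + 1) scale, beside 31.0% of the 10145 genes whose higher library held 20 reads or more. None was 2-fold lower, beside 29.2% of those genes. The same 7 lay above all 6 HEK293T libraries, beside 33.8% of genes, and none lay below all 6, beside 28.8%. The median log2 ratio of the 8 was 5.19 and that of the 10145 genes 0.02. The genes were chosen on this contrast, so these counts describe the choice and support nothing further. ITGA5, at a log2 ratio of 0.78, is the gene just outside the 2-fold limit, and FN1, at 4.45, is the lowest inside it.

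Per length of transcript, ITGA3 was the leading alpha subunit in A549 and ITGB1 the leading beta subunit. By the deposited FPKM the order in A549 was TGFBI (258), ITGB1 (27.0), ITGA3 (9.39), FN1 (5.52), ITGB4 (3.34), LAMB3 (1.58), ITGA5 (1.04) and THBS1 (0.459). ITGA3 made up 52.5% of the summed FPKM of 18 alpha subunits in A549 and 0.323% to 9.0% in HEK293T, while ITGA5 made up 5.8% in A549 and 12% to 27.3% in HEK293T. The next alpha subunits in A549 were ITGA2, a collagen receptor subunit, at 23.3%, ITGAV at 8.37% and ITGA6 at 7.66%. In HEK293T ITGA7 took 4.37% to 65.0%, and its entry overlaps that of TMT1B, so its reads may be shared. Among 8 beta subunits ITGB1 held 51.7% in A549 and 28.1% to 64.7% in HEK293T, so its share in A549 was inside the HEK293T range although its level was far above it. ITGB5, a partner of ITGAV, held 39.2% in A549 and 34.7% to 65.9% in HEK293T. ITGB4 held 6.39% in A549 and at most 2.73% in HEK293T. No test was made of these shares, which come from 1 A549 library.

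**Figure D2:**
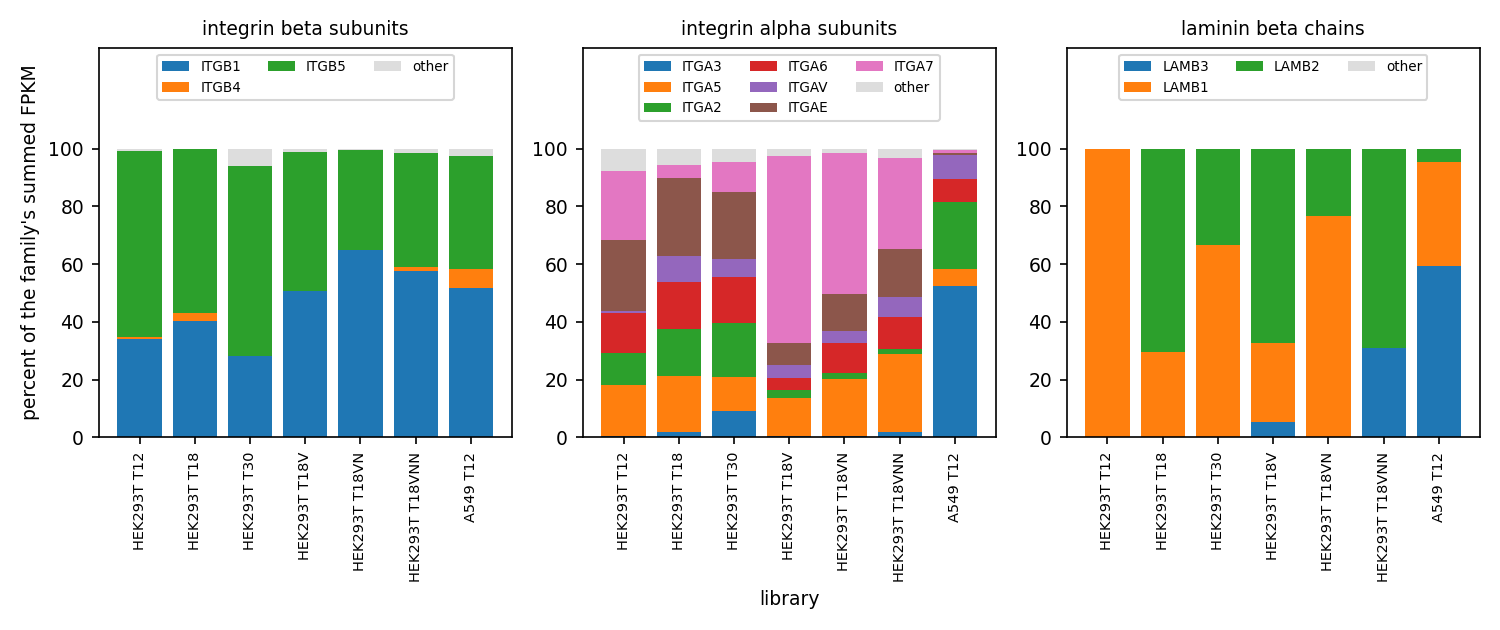
Share of each subunit or chain (percent of the summed FPKM of its family, stacked) in each library. ITGA3 takes 52.5% of the alpha subunits in A549 and at most 9.0% in HEK293T; the laminin beta bars of HEK293T rest on few reads and vary from library to library.

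LAMA3, the alpha chain that assembles with LAMB3, was scarce in both lines. It had 4 reads in A549 and 0 to 7 in HEK293T, too few to tell the lines apart. LAMB3 held 59.2% of the laminin beta chain FPKM in A549, with LAMB1 at 36.2% and LAMB2 at 4.62%. Of the 11 laminin chains beside LAMB3, 6 had at least 20 reads, of which 3 were at least 2-fold higher in A549 and 2 lower, with a median log2 ratio of 0.96. With no minimum beyond 1 read the number higher was 6. LAMA5, the alpha chain of many epithelial basement membranes, had 1426 A549 reads and 111 reads in HEK293T T12 (952 against 34.0 CPM, 28.0-fold) and overlaps LAMA5-AS1 and MIR4758. LAMB1 was 12.5-fold higher in A549 than in HEK293T T12 (42.0 against 3.37 CPM). That ratio rests on 11 T12 reads and had an exact interval of 6.52 to 26.3. In HEK293T LAMB1 ran from 0 reads with T18VNN to 59 reads (13.2 CPM) with T18VN, all below A549. Against the mean of the 6 HEK293T libraries its log2 ratio went from 3.30 to 3.14. LAMA1 went the other way from LAMA5 and LAMB1, with 0 reads in A549 and 24 to 83 in HEK293T. Its T12 level was 8.26-fold the A549 floor, and the ratio of A549 to T12 had an exact upper limit of 0.154. LAMC1 was within 2-fold, at 162 CPM in A549 and 201 in HEK293T T12.

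Of 22 further integrin subunits, 8 reached 20 reads in either line, of which 5 were at least 2-fold higher in A549 and 3 lower, with a median log2 ratio of 2.35. With no minimum beyond 1 read the number higher was 8. ITGAV had 117 A549 reads and 3 reads in HEK293T T12 (85.0-fold, 95% interval 28.4 to 418), but 15 to 65 reads with the other HEK293T primers. ITGA2 was 11.3-fold higher (245 against 21.7 CPM) and ITGB5 9.30-fold higher (666 against 71.7 CPM). ITGA6, the partner of ITGB4, was 2.94-fold higher, at 59.4 against 20.2 CPM, and lay above all 6 HEK293T libraries. ITGAE was 5.89-fold lower in A549 (4.0 against 23.6 CPM), with HASPIN overlapping it. ITGA7, at 6.01 CPM in A549, was lower than HEK293T T12 but inside the HEK293T range of 3.46 to 176 CPM.

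Other matrix proteins were higher in A549 for 17 of the 21 with at least 20 reads, of 33 in the list, and lower for 2, with a median log2 ratio of 2.80. COL5A2, a fibrillar collagen chain, had 192 A549 reads (128 CPM) and none in HEK293T T12. Its A549 level was 139.5-fold the T12 floor, with an exact lower limit of 112 for the ratio to T12. It also had 11 reads (2.45 CPM) with T18VN and 1 read with T18V. SPP1, which encodes osteopontin, an integrin ligand, had 86 reads in A549 and 0 in every HEK293T library. Its A549 level was 62.5-fold the T12 floor, with an exact lower limit of 49.7 for the ratio to T12. AGRN had 145 reads in A549, 2 in T12 and 3 to 15 with the other HEK293T primers, and SPOCK1 was 35.7-fold higher. The 2 genes that were lower were NID1, a basement membrane linker (11.0-fold, 5.34 against 58.8 CPM), and COL6A1 (6.12-fold, 53.4 against 327 CPM), each below all 6 HEK293T libraries.

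Focal adhesion proteins and actin linkers, 28 genes all with at least 20 reads, were higher in A549 for 16, lower for 2 and within 2-fold for 10, with a median log2 ratio of 1.88. TNS3, a tensin that binds integrin tails, was 58.5-fold higher (251 against 4.29 CPM). CAV1, the caveolar coat protein, was 47.3-fold higher and the kinase SRC 49.0-fold higher. CAV1 was at 362 CPM in A549 and 7.66 with T12, but reached 21.7 CPM with T18. SRC was at 150 CPM in A549 and 3.06 with T12, but reached 12.2 CPM with T30. DST, which anchors keratin filaments at hemidesmosomes in its epithelial form, had 80 reads in A549 and 3 in T12, but 11 to 44 with the other HEK293T primers, and its log2 ratio of 4.83 became 2.74 against the mean of the 6. FERMT1 and FERMT2, kindlins that activate integrins, were 2.87-fold and 2.42-fold lower than in HEK293T T12. FERMT1 had 50 reads with T12 and 0 to 6 with the other 5 primers, and set against the mean of the 6 HEK293T libraries its log2 ratio turned from -1.36 to 0.60. FERMT2, at 55.4 CPM in A549, was inside the HEK293T range of 33.3 to 134 CPM, and against that mean its log2 ratio went from -1.26 to -0.31, so neither of the 2 lower genes kept its 2-fold difference.

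Genes of TGF-beta signalling, the pathway after which TGFBI is named, were higher in A549 for 11 of the 15 with at least 20 reads, of 18 in the list, and lower for none. The median log2 ratio of the list was 3.46. The ligand TGFB2 had 2075 reads in A549 and 64 in T12 (70.7-fold, 95% interval 55.1 to 92.1), and its span holds TGFB2-AS1 and TGFB2-OT1. The receptor TGFBR2 had 141 reads in A549 and 2 in T12, and the mediator SMAD3 was 38.9-fold higher (298 against 7.66 CPM). T12 was the lowest HEK293T library for SMAD3, the highest stood at 35.9 CPM, and against the mean of the 6 its log2 ratio of 5.11 became 3.64. The receptors TGFBR1 (1.03-fold) and TGFBR3 (1.46-fold) were within 2-fold. The lists were written with earlier results of these libraries known, and their counts stand beside the 31.0% and 29.2% of all genes given above.

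**Figure D3:**
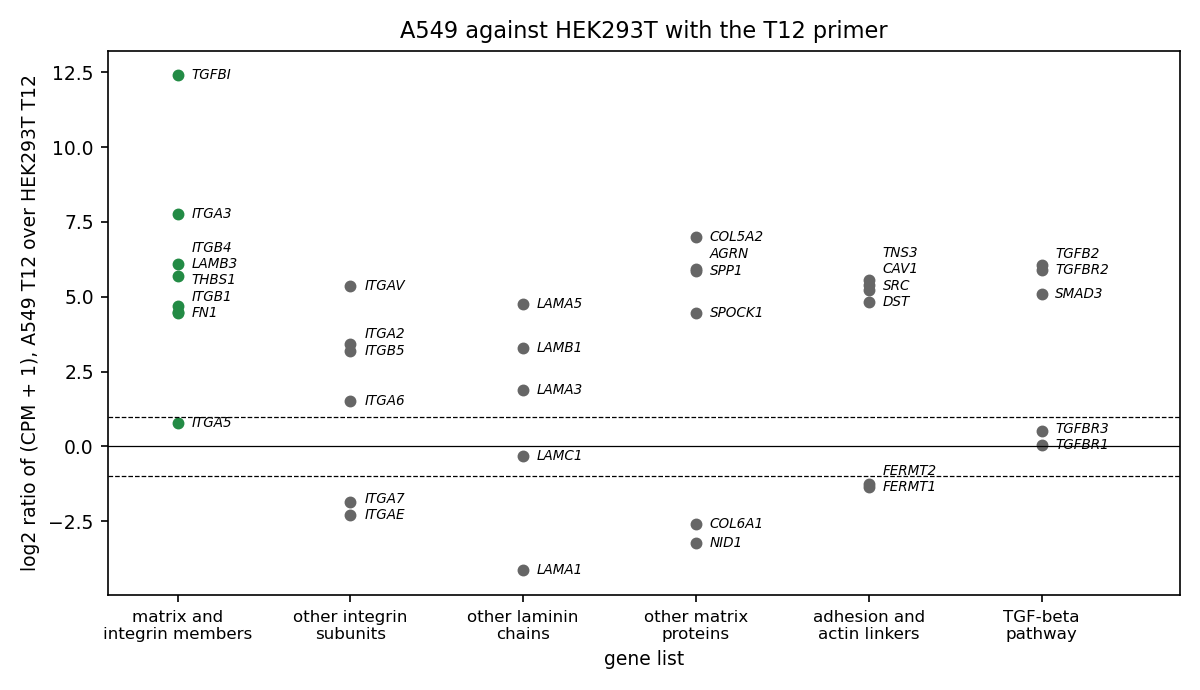
Log2 ratio of (CPM + 1) in A549 T12 over HEK293T T12 for the 8 genes (green) and for genes of the 5 other lists (grey). Grey genes are those picked by the naming rule of the processing section and reported in the text, so BCAR1 and COL4A2 are not shown. Dashed lines mark 2-fold. TGFBI is at 12.39 and ITGA5 at 0.78, and LAMA1, NID1, COL6A1, ITGAE, ITGA7 and the kindlins FERMT1 and FERMT2 lie below the lower line.

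The second comparison used the 6 HEK293T libraries to ask how anchored and unanchored primers differ. Each primer had 1 library, so the spread is between primers within a class and not between cultures, and 3 against 3 cannot give an exact two-sided permutation p below 0.1. ITGA5 had the lowest unadjusted p of the 3 genes that could be tested (p = 0.0123 by edgeR), at 14.2 ± 5.45 CPM unanchored and 38.4 ± 2.92 anchored (SD, n = 3 each), with all 3 anchored libraries above all 3 unanchored ones (exact permutation p = 0.1). Its log2 fold change was 1.26 (SE 0.43) and its adjusted p 0.174 by edgeR's quasi-likelihood test with Benjamini-Hochberg adjustment, so it did not pass 0.05. Reads on genes, as a percent of all reads, also differed by class (11.7% to 20.3% unanchored, 27.7% to 37.5% anchored), and its part in the ITGA5 values was not tested. The direction of ITGA5 held with each library left out, with adjusted p of 0.107 (DESeq2) to 0.441 (without T18VNN) over the 10 alternatives.

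THBS1 was at 0 in all 3 unanchored libraries and at 4.07 ± 3.44 CPM in the anchored ones (SD, n = 3, exact two-sided permutation p = 0.1), where 1, 32 and 17 reads were counted. The low-count filter of edgeR left it out. Without that filter its log2 fold change was 6.80, a fit against a class at 0 that is no bound, and its adjusted p by edgeR's quasi-likelihood test was 0.0859, with 0.0859 to 0.280 over the 5 alternatives that gave an adjusted p. FN1 was at 13.4 ± 9.18 CPM unanchored and 5.42 ± 2.49 anchored, with overlapping classes, a log2 fold change of -1.47 (SE 0.76) and an adjusted p of 0.388 by the same edgeR test. ITGB1 was at 34.7 ± 3.11 and 43.6 ± 8.68 CPM, with a log2 fold change of 0.16 (SE 0.35) and an adjusted p of 0.881 by edgeR. Without T18VNN the ITGB1 log2 fold change was -0.022.

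In all, 3 of the 8 genes entered the edgeR test and 5 (TGFBI, THBS1, LAMB3, ITGA3 and ITGB4) did not. Of the 3, none was called higher, beside 0.781% of the 10887 genes tested, and none lower, beside 0.569%. By edgeR 1 of the 3 (ITGA5) had an unadjusted p under 0.05, and 1694 of all 10887 tested genes (15.6%) did too. DESeq2 gave an unadjusted p to 7 of the 8, under 0.05 for ITGA5 and THBS1, but an adjusted p to ITGA5 and ITGB1 alone, and called neither. ITGA5 was the 1 gene of the 3 with every anchored library above every unanchored one, as 16.8% of the tested genes were. None had every anchored library below, as 6.8% of the tested genes did. THBS1, outside the test, also had its anchored libraries above, but T18V by 1 read only, under the floor of 3 reads. For ITGA3 and ITGB4 the classes overlapped, at 3.19 ± 3.54 against 1.67 ± 1.20 CPM and at 1.75 ± 2.07 against 0.649 ± 1.12 CPM (unanchored first, SD, n = 3 each).

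**Figure D4:**
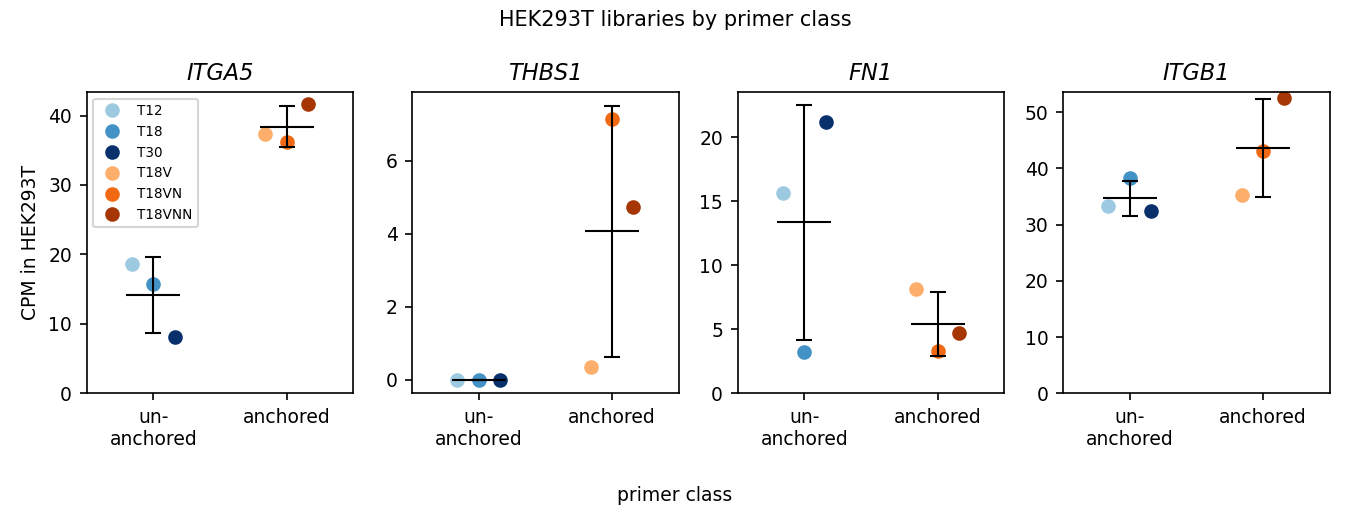
CPM of ITGA5, THBS1, FN1 and ITGB1 in the 3 unanchored and 3 anchored HEK293T libraries; points are libraries, and black bars are the class mean and SD (n = 3). ITGA5 separates by class (14.2 against 38.4 CPM on average), THBS1 has reads in anchored libraries only, and FN1 and ITGB1 overlap.

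Of the genes in the adhesion lists, 1 passed the test between primer classes. Over all 10887 genes tested, 0.781% were called higher with an anchor and 0.569% lower. BCAR1, an adaptor of focal adhesions phosphorylated after integrin binding, was at 7.96, 12.9 and 4.96 CPM with T12, T18 and T30 and at 77.6, 76.8 and 50.6 CPM with T18V, T18VN and T18VNN. The anchored libraries were all above the unanchored ones, with a log2 fold change of 2.79 (SE 0.44) and an adjusted p of 0.0121 by edgeR's quasi-likelihood test. The adjusted p was 0.0508 without T30 and 0.0705 without T18V by the same edgeR test, which ends the call. Over all 10 alternatives it ran from 2.2e-06 (DESeq2) to 0.0705. Of the tested genes, the counts called were 0 of 7 other integrin subunits, 0 of 5 laminin chains, 0 of 14 matrix proteins, 1 of 26 focal adhesion genes and 0 of 10 TGF-beta genes, with 3, 0, 1, 4 and 1 at an unadjusted p under 0.05, beside 15.6% of all genes tested. Several of these genes did not pass and are given by value: ITGA7 was at 11.6 ± 11.3 CPM unanchored and 103 ± 66.2 anchored, and ITGB5 at 73.1 ± 12.5 and 34.9 ± 7.77 (SD, n = 3 each). ITGA2 was at 23.4 ± 1.63 and 8.26 ± 4.6 CPM, and COL4A2, a basement membrane collagen chain, at 124 ± 74.3 and 33.9 ± 19.4. Their adjusted p by edgeR was 0.0595 for ITGA7, 0.111 for ITGB5, 0.148 for ITGA2 and 0.0754 for COL4A2. BCAR1 and COL4A2 were named after their values were seen.

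Across the 6 HEK293T primers, the highest CPM over the lowest (the lowest raised to the floor) was 1.62 for ITGB1, 5.13 for ITGA5, 6.03 for ITGB4, 6.49 for FN1 and 12.4 for THBS1. ITGB1 was thus the steadiest of the 5 genes with at least 20 reads in a HEK293T library. The median over those 5 was 6.03, beside 3.98 over 11764 genes with at least 20 reads, whose quartiles were 2.51 and 7.40.

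An oligo(dT) primer can also anneal to a run of A inside a transcript, so the runs in the 8 transcripts (GENCODE 29, GRCh38) were listed. The longest run was 5 or 6 A in 7 of the 8 and 8 A in THBS1, and none reached 12, which 14.2% of 12001 expressed genes did. The median longest run of those genes was 6. TGFBI had the most A549 reads of the 8, and ITGA5 the lowest unadjusted edgeR p between primer classes of those tested among the 8. Their runs, from the coding sequence, are shown in capitals.
TGFBI, exon 10 of 17, chr5:136054832-136054837, plus strand: actctgggcggcAAAAAActgagagttttt
ITGA5, exon 30 of 30, chr12:54396329-54396333, minus strand: gcaccgccatggAAAAAgctcagctcaagc
The TGFBI run ends 1257 nt before the end of the transcript and the ITGA5 run 1068 nt before it. The THBS1 run, in its 3′ UTR, ends 241 nt before the end. A polyadenylation signal (AATAAA or ATTAAA) was in the last 50 nt of 7 of the 8 transcripts, with THBS1 the one without, and in 74.3% of the 12001.

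The genes whose pattern over the 7 libraries was nearest to TGFBI, by Euclidean distance in log2(CPM + 1) among 6606 genes, were ALDH1A1 (distance 0.591), AKR1B10 (1.77) and KRT7 (1.97). Those 6606 were the genes with at least 50 reads in a library and no overlap with another gene. ALDH1A1 was at 4081 CPM in A549 and at most 0.356 CPM in HEK293T, and the other two had 0 reads in HEK293T. Nearest to FN1 were DPYSL3 (2.01), TNFRSF1A (2.19) and PLAU (2.2). Nearest to ITGB1 were SERPINB1 (0.339), EEIG1 (0.923) and TRAM1 (1.05). SERPINB1 ran from 29.1 to 46.9 CPM in HEK293T and was at 736 CPM in A549, beside 32.5 to 52.6 and 777 CPM for ITGB1.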

How the data were processed

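Groups were taken from the sample titles. Of 9 libraries, 7 had gene counts, and the other 2 had poly(T) lengths and were not used. Per the submitters' processing notes, reads were handled with FastQC 0.11.8, cutadapt 2.10, Trimmomatic 0.39, HISAT2 2.2.1 and SAMtools, on GRCh37 or hg19. The deposited tables give, per RefSeq transcript, the authors' read count, FPM (a signal scaled to a library total) and FPKM, in the layout of RSeQC, with no stated use of strand. Reads that fall in several transcripts appear in each of them.

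Of 61177 transcript entries, 60133 (98.3%) matched a RefSeq symbol. The entry with most reads was kept per gene, which gave 26625 genes, of which 8238 overlap another gene. CPM was computed from reads on kept genes. The 8 genes and all lists were chosen with earlier results of these data known. From each list the named genes were those with at least 50 reads among the 4 highest and 2 lowest log2 ratios, with LAMA3 and ITGA6 always named; 2 genes that the rule picks are not reported here. A549 T12 and HEK293T T12 were compared at 2-fold on log2(CPM + 1), with a pseudocount of 1, for genes reaching 20 reads in either. Anchored (3) and unanchored (3) HEK293T libraries were tested in R 4.3.3 with edgeR 4.0.16 (filterByExpr, TMM, quasi-likelihood test, Benjamini-Hochberg at 0.05), tested first on simulated data, and with DESeq2 1.42.0 as an alternative. Intervals are 95% Wilson intervals, or exact conditional intervals for a ratio of 2 counts; they and the floor of 3 reads cover counting error only. Promoters are from RefSeq (GRCh38.p14), transcripts from GENCODE 29; gene spans are hg19.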

Additional observations from a re-analysis of the deposited data

Results flagged for a closer look

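ITGA3 in the HEK293T T30 library, at 7.22 CPM (16 reads), stood apart from the other 5 HEK293T libraries, which lay at 0.612 to 3.06 CPM (2 to 11 reads). Its gap to the next library was a larger part of the whole range than Dixon's 95% critical value for 6 samples. Of the 8 genes, 6 were checked in this way, and chance marks about 1 in 20 such groups. The 6 libraries differ in primer, so they are not replicates of 1 condition. By counting error, the 95% Wilson interval of T30 (4.44 to 11.7 CPM) overlapped that of T18VNN (1.71 to 5.48 CPM).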

How the results depend on the processing

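No paired analysis was possible because each pairing of line and primer had 1 library with gene counts, and the T12 libraries of the lines that had them carry different replicate numbers. The number of the 8 genes at least 2-fold higher in A549 was 7 under all 7 alternatives, and none of the tested genes among the 8 was called between primer classes under any of 10. Scaling moved the median log2 ratio of all genes from 0.02 to -0.24 (TMM) and -0.26 (library total), so ratios of the named genes are read beside that shift. Ratios against a library at or near 0 moved further with the library total, which makes values smaller beside the pseudocount. TGFBI went from 12.39 to 9.50, ITGA3 from 7.77 to 5.45, ITGB4 from 6.08 to 4.12, LAMB3 from 5.69 to 2.97 and THBS1 from 4.68 to 2.11. With more reads in T12, FN1 (15.6 CPM) went from 4.45 to 3.75 and ITGB1 (33.4 CPM) from 4.50 to 3.97. Against the mean of the 6 HEK293T libraries FN1 was 5.12 and THBS1 3.08. Of 190 alternatives for 38 gene ratios, 4 changed sign, in 3 genes: FERMT1, past 2-fold, to 0.60 against that mean, and within 2-fold LAMC1 (-0.31 to 0.080 against that mean) and TGFBR1 (0.043 to -0.28 with the library total and -0.23 with TMM). Over all genes, the count called between primer classes was 147 (85 higher, 62 lower) in the main analysis, 603 with DESeq2 (277 higher, 326 lower) and 556 with no low-count filter (283 higher, 273 lower). Leaving out 1 library gave 46 to 111 calls, of which the 46 (19 higher, 27 lower) came without T18VNN, and 54 (19 higher, 35 lower) without T30. Without T12 there were 107 calls (41 higher, 66 lower), without T18 85 (39 higher, 46 lower) and without T18V 63 (34 higher, 29 lower). ITGB1 ranged from -0.022 to 0.25 in log2 fold change with 1 library left out, and was reversed without T18VNN. The causes were not tested. Depth limits LAMB3, ITGA3, ITGB4 and THBS1 in HEK293T, which had at most 32 reads in any library.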
